A study of Mus musculus with 16 samples.

Results

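Liver endothelial cells were followed here through 36 transcripts, all of them present in the deposited table of 12618 genes. The transcripts were chosen by gene symbol from a list of known endothelial and sinusoidal endothelial genes. The rule uses no measured value, but the members were chosen with earlier results of these data known. RNA came from whole flash-frozen livers, whose main cell type is the hepatocyte. All 9 hepatocyte markers looked for, Alb and Ttr among them, were in the table, every endothelial transcript had at least 24 reads in each library, and the 36 transcripts together made up between 0.143% and 0.186% of the normalized counts of a library. The study compared 8 livers labelled control CRISPR with 8 livers labelled Cyp7a1 CRISPR, and every mouse had received Western diet for 8 weeks. CRISPR edits a chosen gene, and the product of Cyp7a1 catalyses the first, rate-limiting step that turns cholesterol into bile acids. The delivery of the editing reagents, the edited cell type, the strain, sex and age of the mice, and whether each library came from a separate mouse are not stated in the labels, so a p-value here measures only how far these libraries spread, which may be technical.

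Sequencing depth was between 13.8 and 27.4 M reads recovered from the deposited values (M, mega) per library. The Cyp7a1 transcript was not lower in the group labelled for it. Its level was 3587 ± 1252 normalized counts in controls and 4702 ± 1126 in the other group (SD, n = 8 each), with a log2 fold change of 0.43 ± 0.20 (SE) and an adjusted p of 0.227 in limma. The group is therefore called Cyp7a1-labelled, and each direction given is that of the labels. A normalized count is a read count divided by a factor for the depth of its library, and a fold change is the Cyp7a1-labelled mean minus the control mean on the scale log2(normalized count + 1), with a call made at an adjusted p under 0.05 over 12617 genes.

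Sinusoidal endothelial cells line the capillaries of the liver lobule. They lack a basement membrane and carry open pores, they take up waste molecules from blood through scavenger receptors, and they are patterned along the lobule, with Wnt ligands made mainly near the central vein. Their identity depends on vascular endothelial growth factor (VEGF) signalling and on the transcription factor Gata4, and they make the bone morphogenetic proteins (BMPs) that set hepcidin in hepatocytes and the clotting factor F8. In bulk liver a lower level of such a transcript can come from fewer endothelial cells or from less RNA per cell, and these cannot be told apart.

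The transcript that differed between the groups, Nrp1, encodes neuropilin 1, a co-receptor that binds VEGF and class 3 semaphorins. Its promoter is shown with those of the VEGF receptors Kdr and Flt1 and of Plxnd1, a semaphorin receptor. These genes belong to the VEGF receptor and co-receptor group, in which all 5 fold changes lay below 0, as in 27 of all 36 members. The remaining member, Flt4, is not shown, and all 250 bases of its window lay in GENCODE exons. Each sequence is the 250 bases before the RefSeq start on GRCm38.p6, given 5′ to 3′ on the strand of the gene. Capitals mark GGAAG or its reverse complement CTTCC, 1 form of the core recognised by ETS factors, which include the endothelial regulators Erg and Fli1. This form is called the ETS core below, and other forms were not searched. The windows are chr8:128358823-128359072 on the plus strand for Nrp1, chr5:75978456-75978705 on the minus strand for Kdr, chr5:147726012-147726261 on the minus strand for Flt1 and chr6:115995006-115995255 on the minus strand for Plxnd1.
Nrp1: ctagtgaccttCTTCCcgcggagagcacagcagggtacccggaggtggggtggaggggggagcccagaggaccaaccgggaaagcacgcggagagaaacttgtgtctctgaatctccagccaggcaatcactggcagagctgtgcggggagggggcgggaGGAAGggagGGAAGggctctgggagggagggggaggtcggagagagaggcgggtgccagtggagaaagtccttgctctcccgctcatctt
Kdr: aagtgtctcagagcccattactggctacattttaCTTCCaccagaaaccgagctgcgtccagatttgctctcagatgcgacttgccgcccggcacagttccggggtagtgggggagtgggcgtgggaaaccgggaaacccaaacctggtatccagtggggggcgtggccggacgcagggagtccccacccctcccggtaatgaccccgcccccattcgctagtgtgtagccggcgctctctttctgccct
Flt1: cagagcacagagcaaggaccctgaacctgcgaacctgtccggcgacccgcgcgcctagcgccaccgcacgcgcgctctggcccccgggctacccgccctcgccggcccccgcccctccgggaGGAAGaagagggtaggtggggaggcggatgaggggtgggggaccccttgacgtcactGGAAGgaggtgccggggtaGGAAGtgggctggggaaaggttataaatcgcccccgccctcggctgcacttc
Plxnd1: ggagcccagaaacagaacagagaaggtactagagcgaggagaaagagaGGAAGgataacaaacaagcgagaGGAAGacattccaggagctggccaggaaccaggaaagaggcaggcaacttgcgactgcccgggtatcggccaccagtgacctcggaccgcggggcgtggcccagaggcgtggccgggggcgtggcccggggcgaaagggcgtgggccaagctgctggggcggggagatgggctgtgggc

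The ETS core occurred 3 times in the Nrp1 window, 3 times in that of Flt1, 2 times in that of Plxnd1 and 1 time in that of Kdr. RefSeq promoters matched 22 of the 36 members, and 18 of those 22 (81.8%) held the core on either strand, against 63.6% of all 27025 promoters. The letters AGATAA or TTATCT, a form of the sequence bound by GATA factors, were in 0 of the 22 windows and in 10.3% of all. Other forms of that sequence were not searched, and some windows hold them, such as agatag in those of Wnt2 and Clec4g. A match describes letters in the window and not binding, and some windows are exon sequence. All 250 bases lay in GENCODE exons for Ehd3, Flt4, Bmp6, Rasip1 and F8, and 212 did for Tie1. Flt4, Rasip1, F8 and Tie1 are among the 18 with the core. The Nrp1 window begins downstream of the GENCODE M21 gene start, since the RefSeq start lies 469 bases inside that model, and it overlaps none of its exons.

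Levels were compared between genes as normalized counts per kilobase of exon. In control livers the water channel Aqp1 was highest at 949.6 ± 63.0 per kilobase (SD, n = 8), and the BMP and TGF-beta co-receptor Eng was next at 763 ± 40.6. These top levels differed from each other and from the next by more than the larger SD of each pair. Below them stood the lectin Clec4g at 457 ± 81.1, then Oit3, Dnase1l3 and Ehd3 between 386 and 369, whose neighbouring means were closer than the spread between livers. The vascular cadherin Cdh5 had 332 ± 37.1 per kilobase, Stab2 had 273 ± 31.9 and Stab1 had 232 ± 19.8. Nrp1, Kdr, Flt4 and Plxnd1 lay together between 187 and 179 per kilobase and could not be ordered against their spread. The lowest 5 members were Flt1, Wnt2, Icam2, Bmp6 and Vwf, from 33.1 to 26.6, again with neighbours inside the spread. Aqp1, Nrp1, Eng and Gata4 are also made by other liver cells, so their levels need not be endothelial alone.

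**Figure D1:**
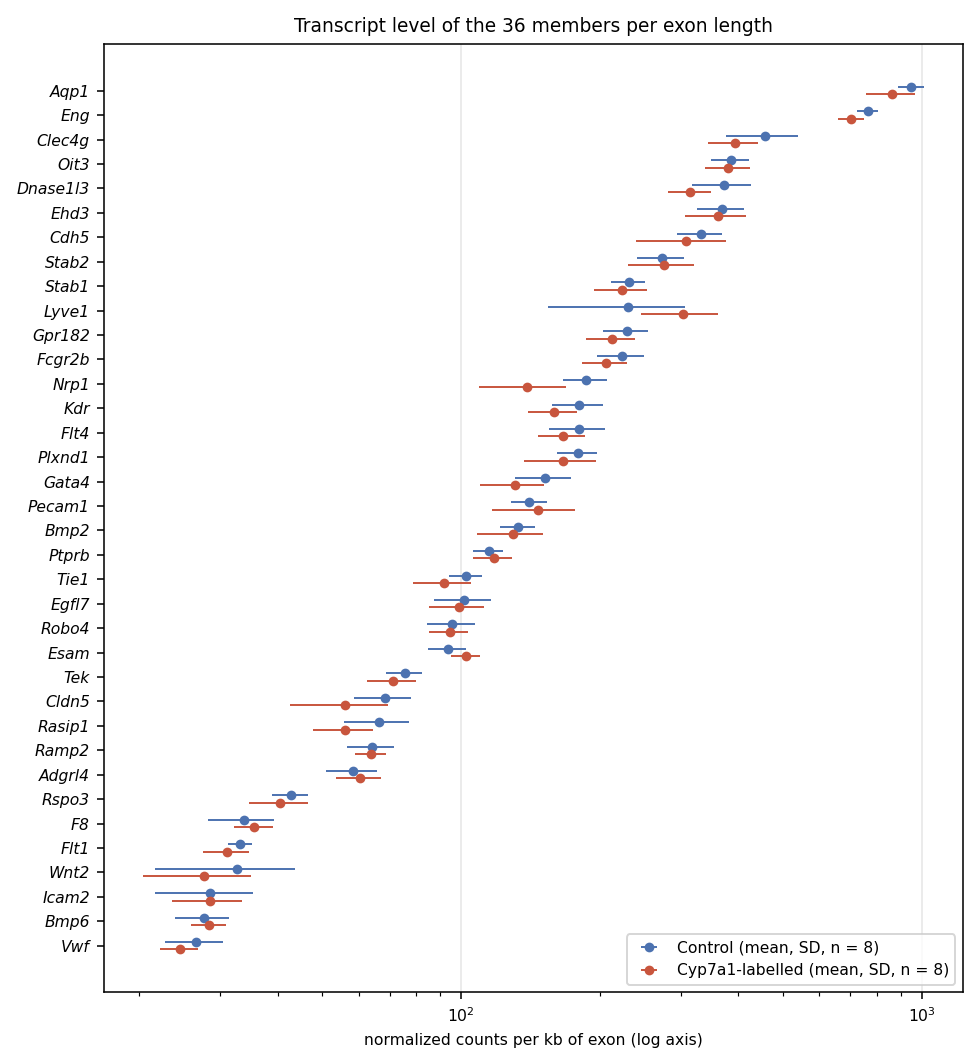
Level of each of the 36 endothelial transcripts in control and Cyp7a1-labelled livers, as normalized counts per kilobase of exon on a log axis; points are group means and bars are SDs (n = 8 each). Aqp1 and Eng stand above the rest, and Vwf is lowest at 26.6 per kilobase in controls.

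Across the group comparison, the endothelial transcripts differed little between control and Cyp7a1-labelled livers, apart from Nrp1. Nrp1 fell to 0.733 of its control level, and it was the only member of the 36 called (2.78%), against 6.12% of all genes tested, or 3.05% in the lower direction. The other members had log2 fold changes between -0.31 for the tight junction protein Cldn5 and 0.46 for the hyaluronan receptor Lyve1. Of the 36, 33 lay within 0.25 of 0, as did 10771 of all 12617 genes, so most genes were as near to 0. Fold changes below 0 were found in 27 of 36 members (75.0%), against 49.1% of all genes, and the median was -0.09 for the members and 0.003 for all genes. Of the 9 hepatocyte markers, 8 had fold changes above 0, with a median of 0.18, and their part in the endothelial values was not tested. At an unadjusted p under 0.05 there were 10 members (27.8%), 9 of them lower (25.0%) and 1, Lyve1, higher, against 20.5% of all genes, 10.4% lower and 10.1% higher. That count rested on single libraries: it was 5 (13.9%, against 19.4% of all genes) without Control 38 and 6 (16.7%) without Control 12, Control 25, Cyp7a1 5, Cyp7a1 19 or Cyp7a1 36, shares below those of all genes in the same fits. It was also 6 with equal totals and 7 in edgeR, and the 16 fits that left out 1 library gave between 5 and 9. The 9 lower members were Nrp1, Kdr, Tie1, Eng, Cldn5, Rasip1, Dnase1l3, Aqp1 and Gata4, so no Wnt ligand and no receptor coupled to G proteins was among them. On recovered reads edgeR and DESeq2 each called 1 of the 36, again Nrp1, where they called 6.02% and 8.88% of all genes. No member had groups that did not overlap, a pattern found in 1.04% of all genes. The count of members below 0 was 23 without liver Cyp7a1 2, the lowest liver in 13 members, and 31 without both Control 20 and Cyp7a1 24. Called members numbered 2 with libraries weighted by their quality (array weights), where 7.41% of all genes were called, and 3 without that pair of livers, where 5.66% were. The role groups and most other lists below are short, so 0 called in a list is close to the 6.12% of all genes. Such a 0 is no result about that list.

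**Figure D2:**
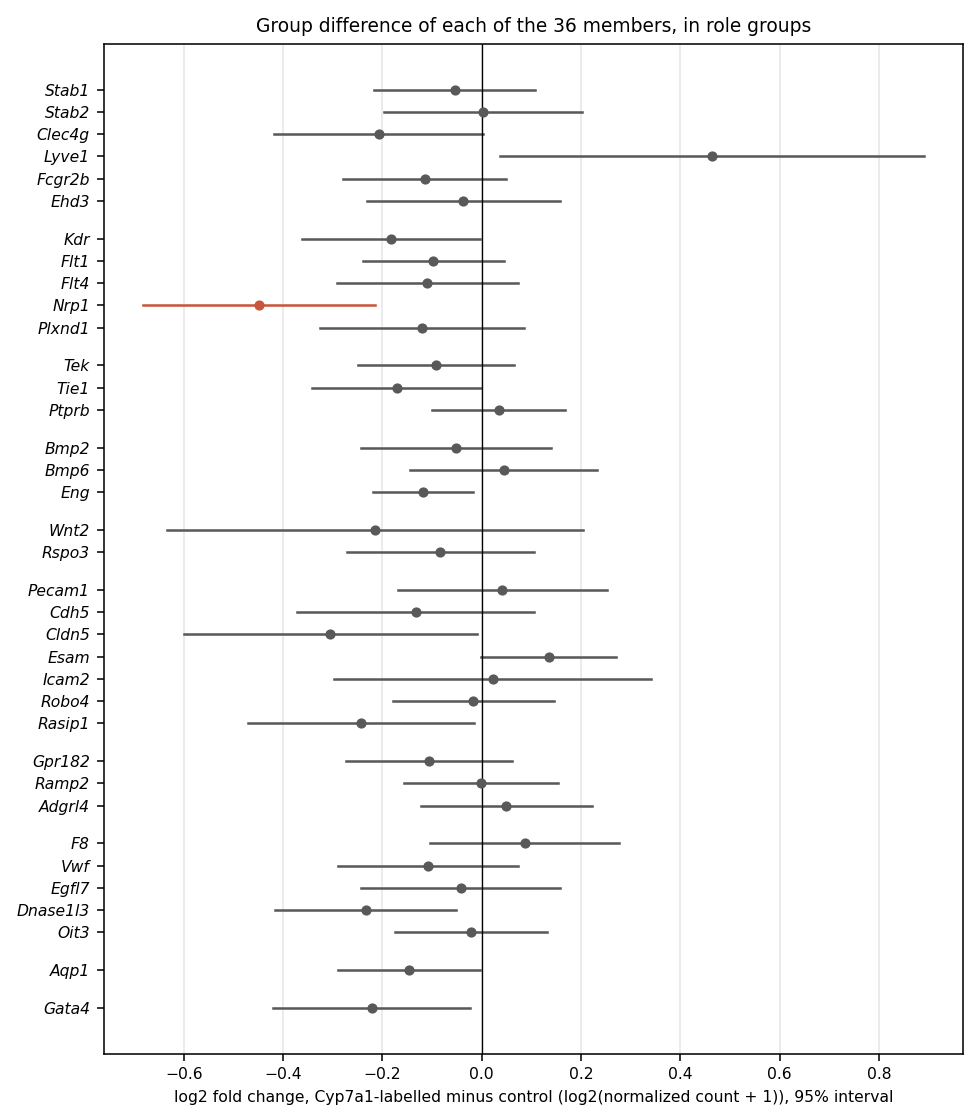
Log2 fold change of each member, Cyp7a1-labelled minus control, with its 95% interval from limma (8 livers per group), grouped by role. Nrp1 at -0.45 is the only member past the threshold, and 27 of 36 points lie below 0.

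Among the VEGF receptors and co-receptors, Nrp1 changed and the other 4 were not called. Nrp1 (ENSMUSG00000025810, chr8:128358604-128503363, plus strand, GENCODE M21 on GRCm38) had 1574 normalized counts in its lowest control liver, a median of 1881 and 2073 in its highest. In the Cyp7a1-labelled livers it had 956, 1376 and 1900. Thus 7 of 8 Cyp7a1-labelled livers lay below every control, and liver Cyp7a1 5, at 1900, lay among the controls. The means were 1831 ± 199 and 1361 ± 289 (SD, n = 8 each), with a log2 fold change of -0.45 ± 0.11 (SE), a 95% interval of -0.68 to -0.21 and an adjusted p of 0.0239 in limma. With each library left out in turn the fold change stayed between -0.52 and -0.38 and the adjusted p between 0.0061 and 0.0486. Measured against the mean of the other 35 members within each liver, log2 Nrp1 ran from 1.35 to 1.89 in controls and from 0.68 to 1.79 in the Cyp7a1-labelled livers, 4 of which lay below every control.

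Kdr, the main signalling receptor for VEGF on endothelium, had 1402, 1584 and 2030 normalized counts in the lowest, median and highest control liver and 1101, 1494 and 1636 in the Cyp7a1-labelled group. The ranges overlapped, with 3 livers below every control, and the log2 fold change was -0.18 ± 0.09 (SE; limma adjusted p = 0.233). Flt1, a VEGF receptor with weak kinase activity, had a log2 fold change of -0.10, Flt4, the receptor for the ligand Vegfc, had -0.11, and Plxnd1 had -0.12. Their control means were 447 ± 27.0, 1482 ± 205 and 1310 ± 132 normalized counts, and their adjusted p-values in limma were 0.455, 0.522 and 0.538. With single libraries left out, Flt4 reached -0.06 (without Control 38) and Plxnd1 -0.07 (without Cyp7a1 28).

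The partners through which Nrp1 signals were looked at in a list drawn up after its value was seen. Of 12 semaphorins, plexins and the adaptor Gipc1, 7 were in the table and 0 were called. The 2 smallest p-values belonged to the plexin Plxna1, with a log2 fold change of -0.18 ± 0.07 (SE; limma adjusted p = 0.139), and to the semaphorin Sema3b, with 0.54 ± 0.26 (adjusted p = 0.253). At an unadjusted p under 0.05 there was 1 of the 7 (14.3%, against 20.5% of all genes), Plxna1. Of the VEGF and angiopoietin ligands and related receptors, 8 of 12 were in the table and 0 were called. The 2 nearest were the vasodilator Adm at 0.43 ± 0.22 (adjusted p = 0.288) and Nrp2, the paralogue of Nrp1, at 0.20 ± 0.15 (adjusted p = 0.482). None of the 8 had an unadjusted p under 0.05, and their median log2 fold change was 0.09. For Nrp2 the means were 829.8 ± 179 and 952 ± 186 normalized counts, control first (SD, n = 8 each).

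**Figure D3:**
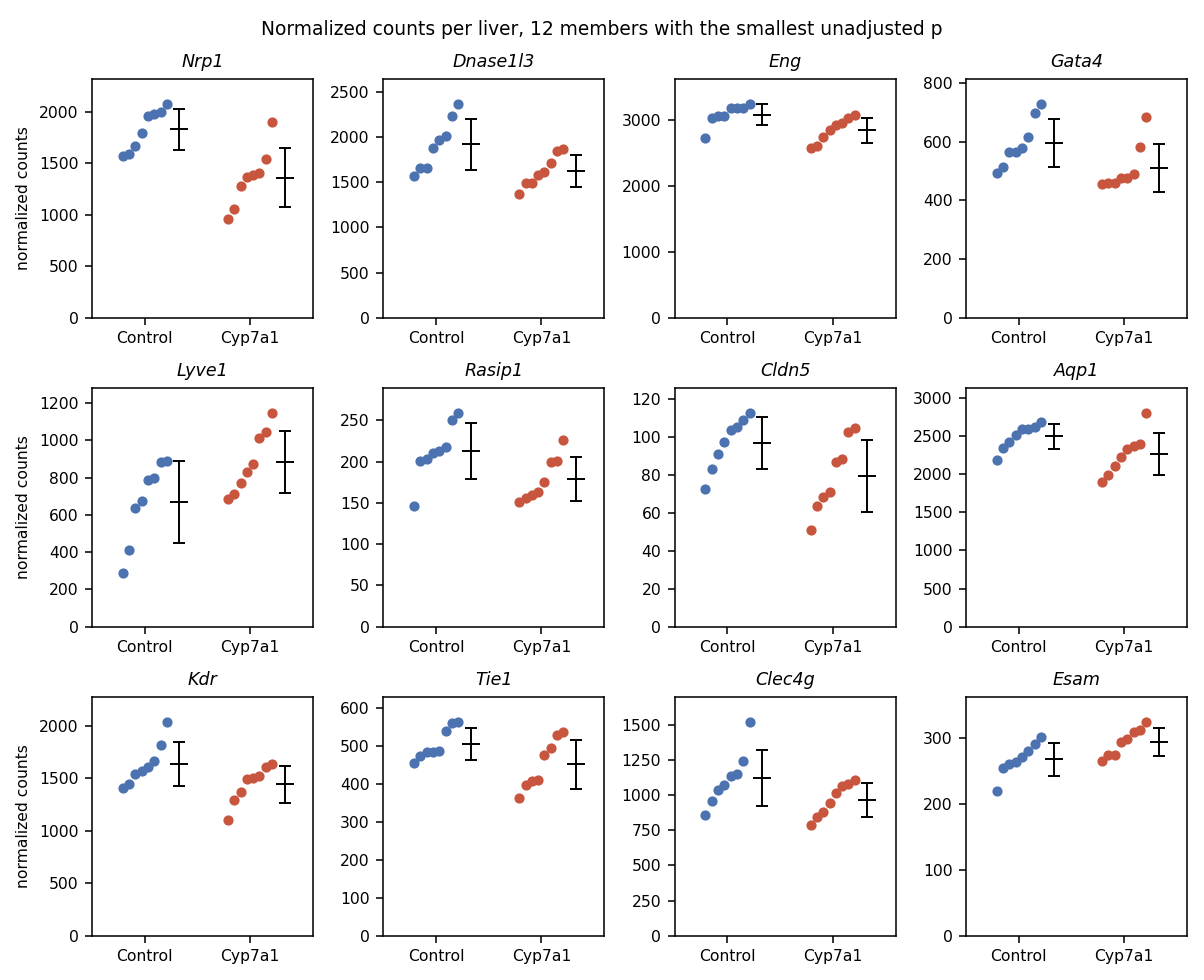
Normalized counts of the 12 endothelial transcripts with the smallest unadjusted p in each control and each Cyp7a1-labelled liver; points are livers, and the black mark beside them is the group mean with its SD (n = 8 each). For Nrp1, 7 of 8 Cyp7a1-labelled livers lie below every control liver, and in no panel do the groups separate fully.

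The scavenging and uptake group, the receptors by which sinusoidal cells clear blood, had 0 of 6 members called, against 6.12% of all genes. Its median log2 fold change was -0.05. Stab2, a receptor for hyaluronan, had 2130, 2341 and 3030 normalized counts in the lowest, median and highest control liver and 1715, 2439 and 3066 in the Cyp7a1-labelled group. Its groups overlapped, with 2 Cyp7a1-labelled livers below every control and Cyp7a1 17, at 3066, above every control. The log2 fold change was 0.002 with a 95% interval of -0.20 to 0.20, and its sign changed with small changes of the data. The related receptor Stab1 had 2383 ± 204 and 2305 ± 303 (SD, n = 8 each), a log2 fold change of -0.05. Fcgr2b, the inhibitory receptor for IgG complexes, had -0.12 (-0.08 without Control 25), and Ehd3, a protein of endocytic recycling, had -0.04.

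Lyve1 and Clec4g, both surface receptors of sinusoidal cells, had fold changes on opposite sides of 0. Lyve1 had 287, 733 and 889 normalized counts in the lowest, median and highest control liver and 685, 853 and 1145 in the Cyp7a1-labelled livers. All 8 Cyp7a1-labelled livers were above the control mean of 672, 5 inside the control range and 3 above it. The log2 fold change of 0.46 ± 0.20 (SE) was not called (limma adjusted p = 0.200), and it was 0.30 without Control 20. The 2 lowest Lyve1 values were those of Control 20 at 287 and Control 25 at 414. Clec4g had 863, 1107 and 1521 in controls, and 789, 981 and 1110 normalized counts in the other livers, and its log2 fold change was -0.21 ± 0.10 (limma adjusted p = 0.2496). All 8 Cyp7a1-labelled livers were below the control mean, while 2 were below the lowest control. The ratio of Lyve1 to Dnase1l3 within a liver ran from 0.129 in Control 20 to 0.539 in controls and from 0.372 to 0.767 in the Cyp7a1-labelled livers. The ratio was chosen after the values were seen and has no test.

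Of the angiopoietin receptors, which keep vessels stable, 0 of 3 members were called. Tie1 had 455, 484 and 561 normalized counts in its lowest, median and highest control liver and 363, 443 and 535 in the Cyp7a1-labelled group. Its groups overlapped in 4 of the 8 Cyp7a1-labelled livers, and the log2 fold change was -0.17 ± 0.08 (SE; limma adjusted p = 0.240). Tek, the receptor that binds angiopoietins, had -0.09, and the phosphatase Ptprb, which acts on Tek, had 0.03. Ptprb and Eng were among the members that varied least between livers, with a highest value of 1.36 and 1.26 times the lowest over all 16.

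BMP ligands and their co-receptor had 0 of 3 members called. Bmp6, the ligand that links liver iron to hepcidin, had 80.9, 108 and 130 normalized counts in the lowest, median and highest control liver and 90.01, 114 and 120 in the Cyp7a1-labelled group. The second range lay inside the first, and the log2 fold change was 0.04 with a 95% interval of -0.14 to 0.23. Bmp2, which acts on the same pathway, had 428, 462 and 565 in controls and 361, 471 and 547 in the other group. Its log2 fold change was -0.05 with an interval of -0.24 to 0.14. Eng had 2728, 3128 and 3243 in controls and 2577, 2895 and 3076 in the Cyp7a1-labelled livers, all 8 of which were below the control mean of 3089. Eng had a log2 fold change of -0.12 ± 0.05 (SE; limma adjusted p = 0.158), and 2 of these livers were below the lowest control.

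Genes of the BMP pathway in the liver, which include receptors and regulators as well as targets, were mostly not called either. Of 21 genes of BMP signalling and hepcidin control, 1 was called, higher, against 3.07% of all genes, and the median log2 fold change was -0.10. The gene called was Hfe, which takes part in hepcidin control in hepatocytes. Hfe rose from 958 ± 68.4 to 1148 ± 108 normalized counts (SD, n = 8 each), a log2 fold change of 0.26 ± 0.06 (SE; limma adjusted p = 0.0164). With libraries scaled to equal totals its adjusted p was 0.0542.

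Endothelial Wnt signals, which set the gene programme of hepatocytes around the central vein, had 0 of 2 members called. Wnt2 had 45.3, 68.7 and 120 normalized counts in the lowest, median and highest control liver and 35.8, 61.3 and 88.1 in the Cyp7a1-labelled group. It was among the most variable members, with a highest value 3.36 times the lowest, and its log2 fold change was -0.22 ± 0.20 (SE; limma adjusted p = 0.602), or -0.11 without Control 25. Wnt2 rested on only 36 to 119 reads per library, so counting error alone gave a coefficient of variation of 11.7% at the median. Rspo3, which amplifies Wnt signals, had 110, 135 and 146 in controls and 97.8, 120 and 159 in the other group. The control range of Rspo3 lay inside the other, and its log2 fold change was -0.08 (adjusted p = 0.665).

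The pericentral genes of hepatocytes that depend on Wnt had 1 of 15 called (6.67%, against 6.12% of all genes), the ammonium transporter Rhbg. Rhbg rose from 49.4 ± 10.7 to 82.6 ± 23.5 normalized counts (SD, n = 8 each), a log2 fold change of 0.71 ± 0.18 (SE; limma adjusted p = 0.0236). Without Cyp7a1 28 its adjusted p was 0.0501. The list had 8 of 15 members at an unadjusted p under 0.05, 5 of them lower and 3 higher, against 20.5% of all genes either way, and its median log2 fold change was -0.21. DESeq2 on recovered reads called 7 of the 15, against 8.88% of all genes, and edgeR called 1, against 6.02%. The 6 called by DESeq2 beside Rhbg, named here because of that count, included the Wnt feedback genes Axin2, Nkd1, Notum and Rnf43, with limma log2 fold changes of -0.31, -0.28, -0.25 and -0.44 and adjusted p-values of 0.0570, 0.0638, 0.0709 and 0.0811. The other two were the secreted protein Lect2 at -0.30 (adjusted p = 0.0630) and the glutamate transporter Slc1a2 at 0.26 (adjusted p = 0.0671). Axin2 had 340 ± 50.9 normalized counts in control livers against 273 ± 27.8 (SD, n = 8 each). Not every Wnt target of the list was lower. Of the 15 fold changes 10 lay below 0 and 5 above, and Znrf3 and Lgr5 were near 0, at 0.03 and -0.006.

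Of the junction, adhesion and guidance proteins, 0 of 7 were called. Cldn5, which seals tight junctions, had 72.2, 100.4 and 112 normalized counts in the lowest, median and highest control liver and 51.1, 78.6 and 105 in the Cyp7a1-labelled group, of which 4 livers were below every control. Its log2 fold change was -0.31 ± 0.14 (SE; limma adjusted p = 0.226). Rasip1, a regulator of vessel lumen formation, had 146, 212 and 259 in controls and 152, 169 and 226 in the other group. Every Cyp7a1-labelled liver lay inside the control range of Rasip1, whose low end was Control 20 alone. The log2 fold change of Rasip1 was -0.24 ± 0.11 (adjusted p = 0.210). It passed the threshold with libraries weighted by their quality (-0.32, adjusted p = 0.04996) and without Control 20 and Cyp7a1 24 (-0.37, adjusted p = 0.0185). Of the exon bases of Rasip1, 20.4% are shared with Izumo1 and 15.6% with an antisense gene, and the strand setting of the counting is unknown.

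The defining junction proteins of endothelium did not separate the groups. Pecam1 had 722, 889 and 972 normalized counts in the lowest, median and highest control liver and 749, 846 and 1292 in the Cyp7a1-labelled group, with a log2 fold change of 0.04 (95% interval -0.17 to 0.25). Cdh5 had 1185, 1424 and 1580 in controls and 972, 1296 and 1839 in the other group, with -0.13 (interval -0.37 to 0.11), or -0.21 without Cyp7a1 24 and -0.08 without Cyp7a1 19. The highest Pecam1 and the highest Cdh5 were both those of liver Cyp7a1 24. Esam, another adhesion protein, had 220, 268 and 303 in controls and 265, 296 and 324 in the other group, and 7 of 8 Cyp7a1-labelled livers were above the control mean. Its log2 fold change was 0.13 ± 0.07 (SE; limma adjusted p = 0.252). Robo4, a guidance receptor that limits leak, had -0.02, and Icam2, which binds leukocytes, had 0.02 from as few as 24 reads in a library.

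Receptors coupled to G proteins and their partners had 0 of 3 members called. Gpr182, an atypical chemokine receptor of sinusoidal cells, had means of 905 ± 99.4 and 842 ± 103 normalized counts, control first (SD, n = 8 each), and a log2 fold change of -0.11. Ramp2, the partner of the adrenomedullin receptor, had -0.002, and 33.4% of its exon bases are shared with Vps25 on the same strand. Adgrl4, an adhesion receptor of growing vessels, had 0.05.

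Secreted proteins and clotting factors had 0 of 5 members called. Dnase1l3, an enzyme that degrades extracellular DNA, had 1571, 1923 and 2358 normalized counts in the lowest, median and highest control liver and 1373, 1597 and 1867 in the Cyp7a1-labelled livers. All 8 of these were below the control mean of 1915, 3 of them below every control, and its log2 fold change of -0.23 ± 0.09 (SE; limma adjusted p = 0.122) had the smallest p after Nrp1. Vwf, the platelet-binding factor of larger vessels, had 303, 425 and 486 in controls and 361, 388 and 477 in the other group. The Cyp7a1-labelled range of Vwf lay inside the control range, and the log2 fold change was -0.11 ± 0.09 (adjusted p = 0.527), or -0.18 without Control 20 alone. Without Control 20, the lowest control, and Cyp7a1 24, the highest of its group, Vwf passed the threshold at -0.22 (adjusted p = 0.0347). The clotting factor F8 had 0.09, Egfl7, a matrix protein of vessels, had -0.04, and Oit3 had -0.02.

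The water channel Aqp1 had 2189, 2552 and 2688 normalized counts in the lowest, median and highest control liver and 1901, 2279 and 2795 in the Cyp7a1-labelled group. The ranges overlapped, 7 of 8 Cyp7a1-labelled livers were below the control mean of 2495, and the log2 fold change was -0.15 ± 0.07 (SE; limma adjusted p = 0.231). Gata4, the factor that keeps liver endothelium sinusoidal, had 494, 572 and 726 in controls and 457, 475 and 684 in the other group. Of the Cyp7a1-labelled livers, 6 were below the lowest control for Gata4, and Cyp7a1 2 and Cyp7a1 36 were inside the control range. Its log2 fold change was -0.22 ± 0.09 (adjusted p = 0.184).

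Other endothelial transcription factors had 0 of 20 called, 3 at an unadjusted p under 0.05 (15.0%, against 20.5% of all genes) and a median log2 fold change of 0.004. The 2 with the smallest p were Lmo2, part of a blood and endothelial complex, at 0.36 ± 0.15 (SE; limma adjusted p = 0.180), and Prox1, which hepatocytes and lymphatic vessels also make, at 0.22 ± 0.10 (adjusted p = 0.200). The Notch pathway, which patterns arteries, had 0 of 9 called and 3 at an unadjusted p under 0.05 (33.3%, against the same 20.5%). Its DNA-binding factor Rbpj had 0.30 ± 0.09 (adjusted p = 0.0595), which passed the threshold with quantile normalization (adjusted p = 0.0424), array weights (0.0432) and DESeq2 on recovered reads (0.0358), and its target Hes1 had -0.40 ± 0.15 (adjusted p = 0.137).

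Genes of capillary-type and activated endothelium rise when sinusoids lose their pores or meet inflammation. This list had 1 of 15 called (6.67%, against 6.12% of all genes) and a median log2 fold change of 0.05. Vcam1, an adhesion protein for leukocytes that other liver cells can also make, rose from 605 ± 203 to 998 ± 271 normalized counts (SD, n = 8 each). Control livers ranged from 239 to 931 and Cyp7a1-labelled livers from 765 to 1502, so the groups overlapped. The log2 fold change was 0.77 ± 0.22 (SE; limma adjusted p = 0.0446), and the call was lost when any of 11 of the 16 libraries was left out, at an adjusted p of up to 0.0778, and with equal totals (0.0714). Both edgeR and DESeq2 called 2 of the 15 (6.02% and 8.88% of all genes), Vcam1 and the caveolar protein Cav1, which had 0.65 ± 0.20 in limma (adjusted p = 0.0584) and is named for that count.

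A wider list of endothelial genes outside the 36 had 1 of 30 called (3.33%, against 6.12% of all genes). Of its 30 fold changes, 21 lay below 0 (70.0%, against 49.1% of all genes), with a median of -0.10. DESeq2, which called 8.88% of all genes, called 2 of the 30, the other being the sphingolipid receptor S1pr1, which had -0.29 in limma (adjusted p = 0.104). The gene called by limma was Ctsl, a lysosomal protease that most liver cells make, and it rose without overlap between the groups. Its control range was 9424 to 12708 normalized counts and its Cyp7a1-labelled range 13911 to 16972.5, a log2 fold change of 0.51 ± 0.07 (SE; limma adjusted p = 0.000277).

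Markers of other liver cells were read beside these results, since bulk RNA mixes all of them. For the stellate cell and fibroblast list, cells that can also make Nrp1, 0 of 13 members were called, and its summed level was 11134 to 21474 normalized counts in controls and 13190 to 20470 in the Cyp7a1-labelled livers. The nearest of this list were the matrix protein Dcn at 0.11 ± 0.08 (SE; limma adjusted p = 0.487) and the pericyte gene Rgs5 at 0.20 ± 0.15 (adjusted p = 0.514). Kupffer cell and macrophage markers had 0 of 13 called, with sums of 10322 to 18499 and 8661 to 30066, and their nearest were Vsig4 at 0.20 and Folr2 at -0.24. Hepatocyte markers had 1 of 9 called (11.1%, against 6.12% of all genes), the enzyme Tat. It rose by 0.84 ± 0.24 on the log2 scale (limma adjusted p = 0.0466). The call was lost when any of 11 libraries was left out, at an adjusted p of up to 0.0906. At an unadjusted p under 0.05 there were 2 of the 9 (22.2%, against 20.5% of all genes), Tat and the gluconeogenic enzyme Pck1. Pck1 had 0.32 ± 0.13 (adjusted p = 0.181). The hepatocyte sum was 1.56 to 2.29 M normalized counts in controls and 1.62 to 2.34 M in the Cyp7a1-labelled livers, so the ranges overlapped. The mean of its centred log2 values was -0.13 ± 0.21 in controls and 0.13 ± 0.27 in the other group (SD, n = 8 each), opposite in sign to that of the 36 endothelial transcripts, 0.04 ± 0.07 and -0.04 ± 0.09. The stellate and Kupffer lists also had 0 members at an unadjusted p under 0.05 and 0 called by edgeR or DESeq2. The part of these cells in the results on endothelial transcripts was not tested.

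The smaller lists had 0 called by limma, edgeR or DESeq2 and 0 at an unadjusted p under 0.05 in limma: 5 cholangiocyte genes (Krt7 0.26, Spp1 0.18), 2 lymphocyte genes (Cd79b 0.53, Ighm 0.39), 2 neutrophil and monocyte genes (Csf3r 0.16, Ccr2 -0.26), 6 red cell and platelet genes (Hbb-bt 0.37, Hbb-bs 0.22) and 3 mesothelial genes (Upk3b -0.26, Msln -0.13), each value being a log2 fold change. The other listed genes of these types were not in the table, among them Cd3e, Cd79a, S100a8 and Ppbp.

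The summed endothelial level spanned a narrower range between livers than that of each marker list of other cells. The 36 transcripts summed to 33408 to 38472 normalized counts in controls and 28720 to 36318 in the Cyp7a1-labelled livers, with means of 35257 ± 1728 and 33098 ± 2424 (SD, n = 8 each). The highest liver held 1.34 times the lowest, against 1.93 times for the stellate list, 3.47 times for the Kupffer list and 4.17 times for the cholangiocyte list, and 1.502 times for hepatocyte markers. The list of capillary-type and activated endothelium spanned 2.37 times, and that of VEGF and angiopoietin ligands 1.32 times. The sums cover different numbers of genes, 36 for the members and 5 for the cholangiocyte list, which was not allowed for. These ratios are descriptions with no test.

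**Figure D4:**
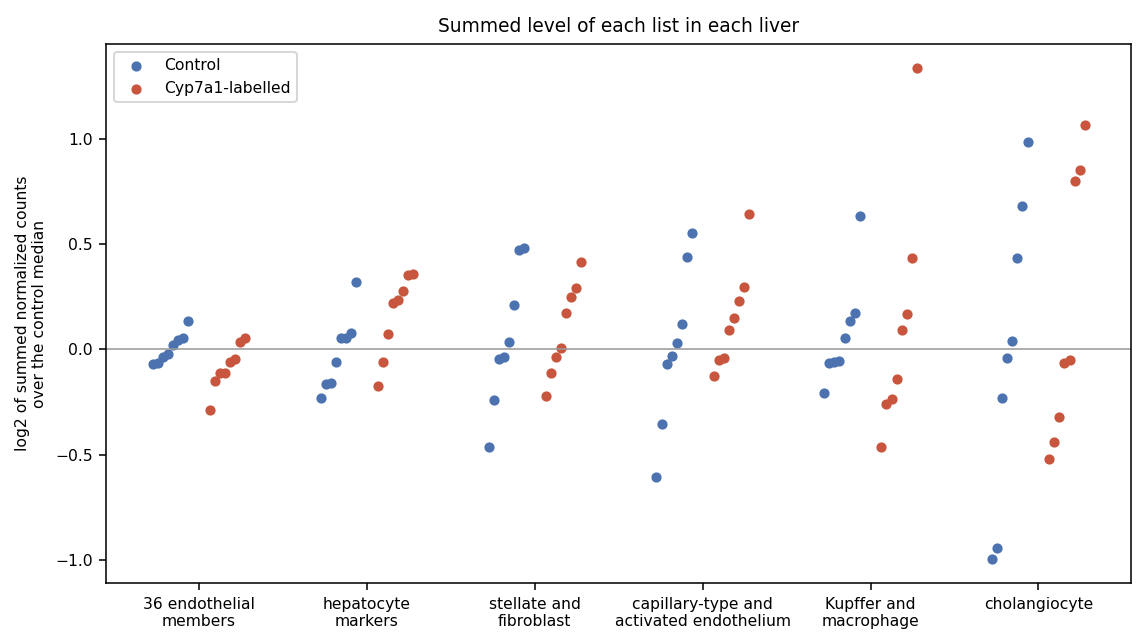
Summed normalized counts of the 36 endothelial transcripts and of marker lists of other liver cells in each liver, as the log2 of the sum over the control median of that list; points are livers by group. The endothelial sum spans 1.34 times from lowest to highest, less than the 3.47 times of the Kupffer list.

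A few livers held most of the extremes among the 36 transcripts. In Control 20, 15 of the 36 were the lowest of the control group, among them Stab1, Lyve1, Eng, Pecam1, Robo4, Rasip1, Vwf and Egfl7, while Flt1 was the highest. Control 25 was highest in 10, including Clec4g, Dnase1l3, Wnt2 and Bmp2, and Control 38 was highest in 9, including Stab2, Kdr, Flt4 and Cdh5. In the Cyp7a1-labelled group, Cyp7a1 2 was lowest in 13, including Stab1, Stab2, Kdr, Flt1 and Bmp6, and had the lowest sum of all 16 livers. Cyp7a1 24 was highest in 14, including Pecam1, Cdh5, Vwf and F8, and Cyp7a1 17 was highest in 11, including Stab2 and Dnase1l3, while it held the lowest Nrp1 at 956. Markers of other cells were extreme in some of these livers, by the mean of their centred log2 values, but not in all. Cyp7a1 2, with the lowest endothelial sum, and Control 38 were the lowest or highest of all 16 for none of these marker lists. Control 25 was the lowest for the cholangiocyte list (-0.87) and Cyp7a1 17 the highest for the hepatocyte list (0.50). Cyp7a1 24 was the highest of all 16 livers for the Kupffer (1.14), lymphocyte (1.90), neutrophil and monocyte (0.85), cholangiocyte (0.76) and red cell (0.94) lists. Control 20 was the lowest of all 16 for the stellate (-0.78), mesothelial (-1.57) and neutrophil and monocyte (-0.71) lists. The part of these cells in the endothelial extremes was not tested. The median coefficient of variation over the members was 11.8% in controls and 12.4% in the Cyp7a1-labelled livers, against 12.1% and 11.3% over all genes. Of the members, 17 of 36 varied more in controls.

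Lyve1 and other sinusoidal genes did not move together in every liver, a pattern picked out after the values were seen. Control 20 and Control 25 had the lowest Lyve1 values of all 16 livers, and they had the highest Clec4g (1246 and 1521), the highest Dnase1l3 (2227 and 2358) and the highest Wnt2 (93.1 and 120). Lyve1 had the widest range of the 36 over all 16 livers, with a highest value 3.997 times the lowest. Within the groups Wnt2 had a larger coefficient of variation than Lyve1. It was 33.6% against 32.8% in controls and 26.5% against 18.9% in the Cyp7a1-labelled livers. Within the lobule Wnt2 is known as a gene of endothelium at the central vein and Lyve1 as one of the sinusoids away from it. Kdr and Flt4 were also uncoupled in Control 20, where their ratio was 1.5998, against 0.871 to 1.20 in the other 15 livers.

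**Figure D5:**
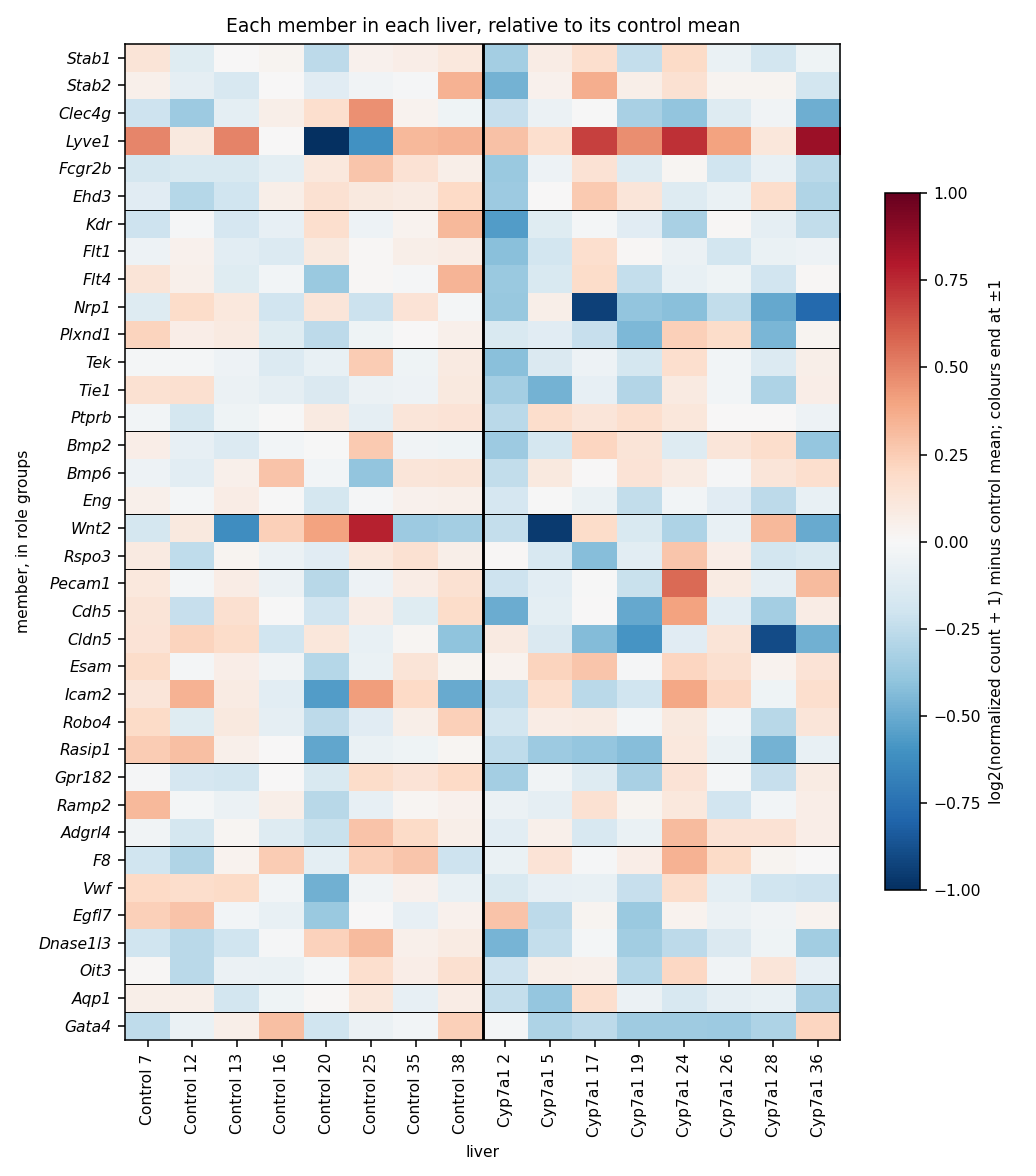
Level of each of the 36 endothelial transcripts in each of the 16 livers, as log2(normalized count + 1) minus the control mean of that gene, ordered by role and group. Cyp7a1 2 is the lowest of its group in 13 rows, Cyp7a1 24 the highest of its group in 14, and Control 20 the lowest of its group in 15.

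Relations between an endothelial signal and a gene known to act with it were measured over the 16 livers for 6 pairs, and none passed after adjustment over the 6. For Bmp6 and Hamp, the hepcidin gene, Pearson's r was 0.13 (permutation p = 0.643, adjusted p = 0.688) and Spearman's rho was 0.26 (permutation p = 0.322, adjusted p = 0.652). Hamp itself ranged from 436 to 9050 normalized counts between livers. Without Control 25 and Cyp7a1 2, the livers farthest from the median Bmp6, r was 0.38, and r was -0.10 within controls and 0.66 within the Cyp7a1-labelled group. Against Id1, a direct BMP target, r was 0.37 for Bmp6 (rho 0.23; permutation adjusted p = 0.494 and 0.652) and -0.25 for Bmp2 (rho -0.21; 0.682 and 0.652), and -0.08 and -0.22 without the 2 farthest livers. Within controls and within the Cyp7a1-labelled livers r with Id1 was 0.39 and 0.38 for Bmp6 and -0.46 and -0.22 for Bmp2. For Axin2, a Wnt target, r was 0.17 with Wnt2 (rho 0.07; permutation adjusted p = 0.688 and 0.787) and 0.11 with Rspo3 (rho 0.09; 0.688 and 0.787), and 0.04 and 0.15 without the 2 farthest livers. Within the groups r with Axin2 was -0.03 and 0.08 for Wnt2 and -0.03 and -0.12 for Rspo3, control first.

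Kdr and its ligand gene Vegfa, made mainly by hepatocytes, gave the largest r of the 6. Pearson's r was 0.51 (permutation p = 0.0439, adjusted p = 0.263) and Spearman's rho was 0.61 (permutation p = 0.0135, adjusted p = 0.0809). Within controls r was 0.84 and within the Cyp7a1-labelled livers it was -0.10, and the difference between these was not tested. The -0.10 includes liver Cyp7a1 2 and was not computed without it. In the rest of that group the lowest Kdr (1292) and the lowest Vegfa (2647) were both those of Cyp7a1 24. The pooled value turned on liver Cyp7a1 2, which had the lowest Kdr at 1101 with a Vegfa of 3707, above the range of 2647 to 3374 in the other livers of its group. Without that liver r was 0.87, the highest value with each library left out in turn, and the lowest was 0.39, without Control 38. Liver Cyp7a1 2 was singled out after the values were seen, so its removal gives no valid test and no p-value is given. With Cyp7a1 2 and Control 38 both left out, the livers farthest from the median Kdr, r was 0.87.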

How the data were processed

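Messenger RNA of whole mouse livers was sequenced in 16 libraries, 8 labelled control and 8 labelled Cyp7a1. The authors deposited normalized counts, a signal scaled for library depth. Tools named in the submitters' processing notes are STAR 2.7.11a, Trim Galore 0.6.10, R 3.6.3, featureCounts and DESeq2, and the build is mm10. Their annotation release, strand setting and choice of genes are not given in the sources used. Dividing each library by the size of 1 read gave whole reads for 99.945% to 99.992% of values (tolerance 0.05 reads), and the reads summed to 13.8 to 27.4 M per library (M, mega). Of 12618 genes, Ccne2 was left out because 1 cell held text, and 19 symbols turned into dates were restored from their gene IDs.

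Groups were compared with limma 3.58.1 under R 4.3.3, using lmFit and a trended eBayes on log2(normalized count + 1). Tests were two-sided, p-values were adjusted by Benjamini-Hochberg across all 12617 genes, and 0.05 was the threshold. No low-value filter was applied (lowest gene mean 13.3). Fold changes on this scale understate the change of low genes. Alternatives were a pseudocount of 8, a minimum mean of 50, quantile normalization, equal totals, array weights, edgeR 4.0.16 and DESeq2 1.42.0 on recovered reads, and leaving out each library; leaving out Control 20 with Cyp7a1 24, the ends of the first principal component, was chosen after seeing the data. The fits were tested on simulated data. Correlations used log2(normalized count + 1) and 100000 permutations. Listed genes Hjv and Vegfd stand in the table as Hfe2 and Figf and were matched by gene ID. Coordinates and exon lengths are from GENCODE M21 on GRCm38, 1-based, and promoters from RefSeq on GRCm38.p6.

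The 36 members and the gene lists were chosen with earlier results of these data known. The text names genes by a rule: lowest, median and highest values for members past the threshold, for the 12 members with the smallest p and for a preset set (Stab2, Lyve1, Pecam1, Kdr, Cdh5, Bmp2, Bmp6, Wnt2, Rspo3, Vwf, Cldn5, Gata4); from each other list, the members past the threshold, at most 4, or the 2 with the smallest p. The groups carry no batch labels.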

Additional observations from a re-analysis of the deposited data

Results flagged for a closer look

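In 6 of 76 groups of 8 livers looked at, 1 liver stood apart from the rest of its group by a Dixon test at 95%, and chance gives about 1 in 20, or 3.8 of 76. Eng in Control 20 was 2728 normalized counts, against 3039 to 3243 in the other controls. The same liver was low in Rasip1, at 146 against 201 to 259, and in Vwf, at 303 against 402 to 486. Vwf in Cyp7a1 24 was 477, above the 361 to 401 of the other livers of its group. Stab2 in Control 38 was 3030, above the 2130 to 2466 of the other controls. Bmp6 in Cyp7a1 2 was 90.01, below the 106 to 120 of the others of its group.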

How the results depend on the processing

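Nrp1 was past the threshold in every alternative run, with an adjusted p from 0.0058 (DESeq2) to 0.0486. The number of members past the threshold was 1 except with array weights, where it was 2 (Nrp1 and Rasip1), and without Control 20 and Cyp7a1 24, where it was 3 (Nrp1, Rasip1 and Vwf). With each library left out it stayed at 1, while all genes past the threshold ranged from 475 (without Cyp7a1 28) to 813, against 772.

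Fold changes near 0 changed sign, all without a call. Under equal totals Stab2 had -0.0051. With array weights Ehd3 had 0.0022, Oit3 0.0015, Pecam1 -0.011 and Icam2 -0.036, and Icam2 had -0.011 with quantile normalization, -0.0013 with edgeR and -0.0039 with DESeq2. Without Control 20 and Cyp7a1 24, Stab2 had -0.035, Pecam1 -0.072, Icam2 -0.11, Adgrl4 -0.020, Spp1 -0.12, Csf3r -0.074 and Hbb-bs -0.068. With single libraries left out the ranges were -0.050 to 0.070 for Stab2, -0.080 to 0.0096 for Ehd3, -0.013 to 0.086 for Bmp6, -0.033 to 0.079 for Pecam1, -0.058 to 0.081 for Icam2, -0.054 to 0.020 for Robo4, -0.042 to 0.044 for Ramp2, -0.096 to 0.0048 for Egfl7, -0.060 to 0.016 for Oit3, -0.043 to 0.24 for Csf3r and -0.38 to 0.071 for Msln.

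Pearson's r for Bmp6 and Hamp was -0.21 under equal totals. With libraries left out it was -0.083 to 0.33 for Rspo3 and Axin2 and 0.39 to 0.87 for Kdr and Vegfa. The cause of these changes was not tested. No paired analysis was possible because the groups share no replicate numbers. Depth limits Icam2, Wnt2 and Cldn5, with as few as 24, 36 and 47 reads in a library.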
